A study of Caenorhabditis elegans with 2 samples.

Results

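FKH-6-GFP regions with a summit within 500 bp of the 5' end of an ncRNA gene numbered 2655, of 26141 nuclear regions in the list that the authors called on both replicates together. FKH-6, a forkhead transcription factor of Caenorhabditis elegans, is needed to form the somatic gonad. The class "ncRNA" is the Ensembl annotation's collection of non-coding RNA genes that it gives no more specific class. Regions within 500 bp of a tRNA, snoRNA or snRNA start were left out, so the 2655 lie over 500 bp from every such start. The regions were mapped by ChIP-seq, sequencing of immunoprecipitated chromatin, in 1 group, with 2 biological replicates, and no second condition was compared. The worms were hermaphrodites of strain OP78, with the genotype unc-119(ed3) III; wgIs78, a stable transgenic line that makes FKH-6 tagged with GFP-FLAG at its C-terminus, and the precipitation used an antibody to GFP, according to the sample descriptions. The antibody field of the labels reads fkh-6 instead, and whether untagged FKH-6 was also recovered was not tested. Whole late embryos were taken 5.5 hours post synchronization by egg bleaching, so regions of all cell types are mixed. No source used here says in which cells the transgene is active. Control libraries were not analysed here, and without read counts in the lists the depth behind a region is unknown. Positions are in ce11.

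Most annotated ncRNA genes of the worm are short transcripts named only by their cosmid, with no known role. A few are well-studied components of ribonucleoproteins. RNase P RNA is the catalytic RNA of the enzyme that trims the 5' leaders of tRNA precursors, RNase MRP RNA belongs to a related enzyme of ribosomal RNA processing, and the RNA of the signal recognition particle (SRP) is the scaffold of the complex that brings secretory proteins to the endoplasmic reticulum. In mammals these 3 RNAs are made by RNA polymerase III, which also makes tRNAs. An ncRNA gene can also lie inside a protein-coding gene, its host, or beside the start of one, and a region there cannot be assigned to either gene from its position.

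The sequences around 8 of the strongest reproducible summits show how differently the ncRNA genes are placed under them. They are 8 of the 10 regions made up of the 5 strongest with and the 5 strongest without a protein-coding start within 500 bp. Those at rpr-1 and F57B10.17 are not shown. Each is given as 75 bases on either side of the summit, written on the strand of the ncRNA. The letters are from the RefSeq WBcel235 genome, which is ce11, and the capitals mark the annotated ncRNA. The windows are C14F11.14 at chrX:6207791-6207941 on the plus strand, T28D6.13 at chrIII:11371397-11371547 on the plus strand, mrpr-1 at chrII:7200179-7200329 on the plus strand, W01D2.9 at chrII:14804656-14804806 on the plus strand, F36H1.17 at chrIV:11026126-11026276 on the minus strand, Y37A1B.335 at chrIV:14033967-14034117 on the minus strand, srpr-2.2 at chrIII:5031634-5031784 on the minus strand and K10H10.11 at chrII:14496981-14497131 on the plus strand.
C14F11.14: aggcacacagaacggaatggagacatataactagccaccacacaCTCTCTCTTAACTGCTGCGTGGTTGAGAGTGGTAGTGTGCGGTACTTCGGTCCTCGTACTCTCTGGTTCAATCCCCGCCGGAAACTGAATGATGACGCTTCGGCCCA
T28D6.13: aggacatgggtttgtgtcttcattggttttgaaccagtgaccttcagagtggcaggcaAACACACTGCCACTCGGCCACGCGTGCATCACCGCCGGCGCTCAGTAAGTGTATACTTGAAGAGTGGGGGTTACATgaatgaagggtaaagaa
mrpr-1: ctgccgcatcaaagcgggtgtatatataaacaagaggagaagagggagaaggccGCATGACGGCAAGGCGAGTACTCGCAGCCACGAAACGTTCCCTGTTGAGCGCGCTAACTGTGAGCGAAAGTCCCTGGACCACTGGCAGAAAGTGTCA
W01D2.9: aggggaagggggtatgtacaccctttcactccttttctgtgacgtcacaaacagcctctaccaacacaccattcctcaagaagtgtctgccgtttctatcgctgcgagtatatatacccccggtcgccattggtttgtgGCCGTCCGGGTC
F36H1.17: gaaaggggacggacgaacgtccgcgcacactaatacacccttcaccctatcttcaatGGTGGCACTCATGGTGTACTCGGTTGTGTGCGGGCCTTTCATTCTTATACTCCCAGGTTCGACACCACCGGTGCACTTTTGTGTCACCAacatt
Y37A1B.335: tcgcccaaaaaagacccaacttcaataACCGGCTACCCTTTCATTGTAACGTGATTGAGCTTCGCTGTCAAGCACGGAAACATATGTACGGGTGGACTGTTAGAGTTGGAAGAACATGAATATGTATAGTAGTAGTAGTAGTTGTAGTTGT
srpr-2.2: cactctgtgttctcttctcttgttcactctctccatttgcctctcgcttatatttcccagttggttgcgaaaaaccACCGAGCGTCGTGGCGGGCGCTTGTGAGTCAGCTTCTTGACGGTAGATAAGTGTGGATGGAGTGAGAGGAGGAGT
K10H10.11: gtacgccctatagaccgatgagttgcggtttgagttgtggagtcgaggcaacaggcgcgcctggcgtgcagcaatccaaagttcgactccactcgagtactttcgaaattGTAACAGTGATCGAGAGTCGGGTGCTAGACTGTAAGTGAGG
The ncRNA covered 124 of the 151 bases for Y37A1B.335 and 107 for C14F11.14, and 12 for W01D2.9, whose summit lay before the gene. The 5 SRP RNA genes are shown by their first 60 bases, because copies this alike can share reads. Here the capitals mark positions at which the copies differ, and this set was chosen after its values were seen. The stretches are srpr-1.1 at chrIII:4379147-4379206 on the minus strand, srpr-1.2 at chrIII:4369468-4369527 on the plus strand, srpr-2.1 at chrIII:5211220-5211279 on the plus strand, srpr-2.2 at chrIII:5031649-5031708 on the minus strand and srpr-3 at chrV:9293573-9293632 on the minus strand.
srpr-1.1: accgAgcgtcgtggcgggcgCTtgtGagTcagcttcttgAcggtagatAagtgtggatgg
srpr-1.2: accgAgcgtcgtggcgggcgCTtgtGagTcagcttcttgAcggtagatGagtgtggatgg
srpr-2.1: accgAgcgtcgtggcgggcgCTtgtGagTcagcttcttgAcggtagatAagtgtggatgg
srpr-2.2: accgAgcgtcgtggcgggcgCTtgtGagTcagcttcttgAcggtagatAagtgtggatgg
srpr-3: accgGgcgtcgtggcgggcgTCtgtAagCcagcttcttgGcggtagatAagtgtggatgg
The 5 genes were equal at 53 of these 60 positions, and srpr-1.1, srpr-2.1 and srpr-2.2 were 1 sequence there. Over their full lengths the 10 pairs were 81.7% to 99.0% identical.

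About 1 in 10 pooled regions lay at an ncRNA start, and few of those were in the authors' reproducible list, which keeps the pooled regions that pass a threshold on the irreproducible discovery rate. The reproducible list held 99 of the 2655 regions, or 3.73% (95% Wilson interval 3.07 to 4.52, for counting error only). It held 2.85% of all nuclear pooled regions. Of the 25420 nuclear regions over 500 bp from tRNA, snoRNA and snRNA starts, the like-for-like background, it held 2.10%. This background is alike in the exclusion only. It includes the 2655 themselves and regions near neither an ncRNA nor a protein-coding start. For 5521 regions at a protein-coding start and at none of these RNA starts the share was 4.56% (4.04 to 5.15), and for 17244 regions at none of these starts it was 1.06% (0.913 to 1.22). Before the exclusion, 3025 regions lay at an ncRNA start and 228 of them, or 7.54%, were reproducible. The 370 that the exclusion removed had a share of 34.9% (30.2 to 39.9). The 99 made up 13.3% of the 746 nuclear reproducible regions, and the 2655 made up 10.2% of the nuclear pooled regions. No difference between these shares was tested. With a −log10 q-value of at least 2, 96 of 163 regions at ncRNA starts, or 58.9%, were reproducible. That was slightly below the 62.9% of 834 regions of the like-for-like background. No interval was calculated for these 2 shares, so no reversal of order is claimed.

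Signal values are those the authors gave each region, and no source used here states their scale. The 2655 regions had a median signal of 38.7, with quartiles of 30.6 and 51.8 and a highest value of 453, against a median of 35.0 over all nuclear regions, whose highest was 874. Every reproducible region at an ncRNA start had a signal of 90.02 or more, and no other region at an ncRNA start exceeded 89.03. Presence in the reproducible list was therefore the same split as a limit on signal, and the 2 are not separate evidence. The median of the 99 was 107 (quartiles 96.1 and 123), and 6 of them ranked among the 100 highest regions of the pooled list. The 2655 summits had 2265 different nearest ncRNA genes, and 842 of the regions, or 31.7%, had 2 or more ncRNA starts within 500 bp. Of 7764 nuclear ncRNA genes, 3012, or 38.8%, had such a region within 500 bp and 148, or 1.91%, had a reproducible one.

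**Figure D1:**
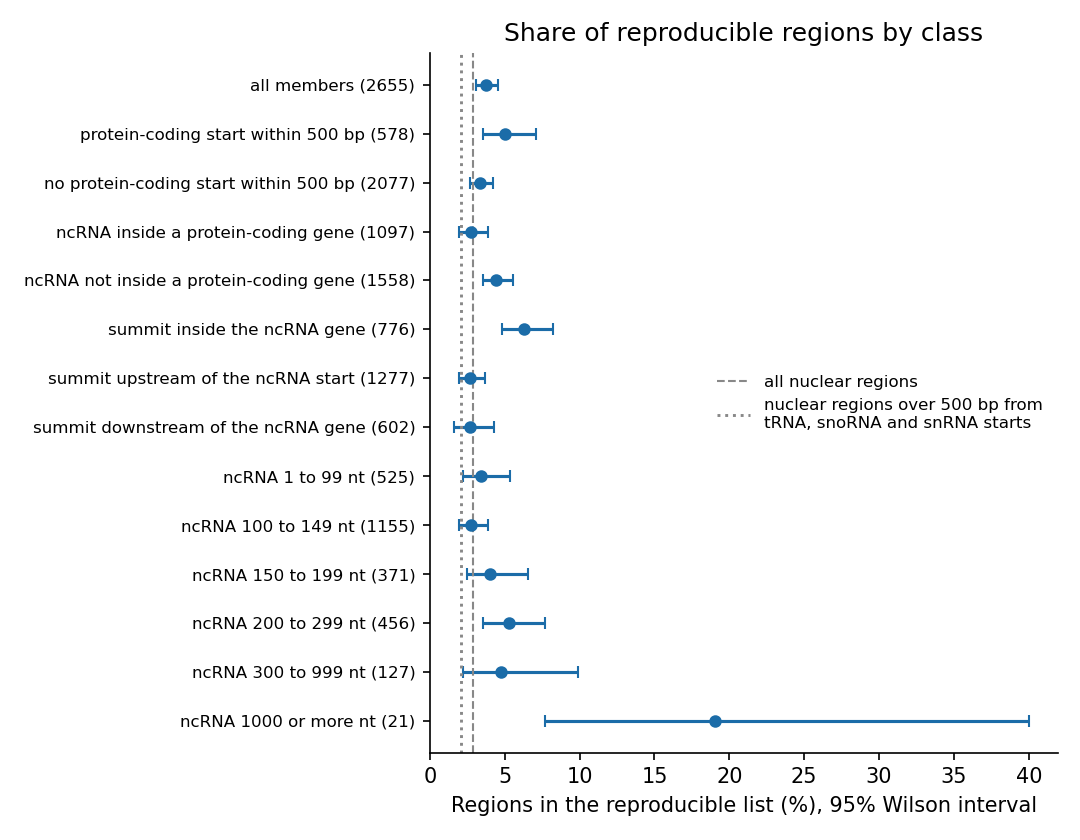
Share of regions at ncRNA starts that were in the reproducible list (x axis, %), by class, with the number of regions in parentheses, points for the share and bars for the 95% Wilson interval. The grey lines are the background shares of 2.85% and 2.10%. The interval for summits inside the ncRNA gene (6.31%) lies above both lines. So do those for all regions, a coding start, ncRNAs not inside a protein-coding gene, and ncRNAs of 200 to 299 nt and of 1000 nt or more. The interval for the 21 regions at ncRNAs of 1000 nt or more is the widest.

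All 7 genes for RNase P, RNase MRP and signal recognition particle RNA had a reproducible FKH-6-GFP summit within 500 bp of their start. This compares with 140 of the 7750 ncRNA genes that carry no gene symbol. At rpr-1, the RNase P RNA gene (chrI:13463955-13464207), the strongest region had a pooled signal of 287, with 121 in replicate 1 and 167 in replicate 2, and ranked 48 in the pooled list. Its summit lay 30 bp past the gene's start. The gene is inside ints-8, which encodes a subunit of the Integrator complex, on the other strand and clear of its exons, with no protein-coding start within 500 bp. A weaker reproducible region, with a signal of 105, lay 231 bp past the same start, and its replicate 1 signal of 22.8 ranked 7523, against 82.03 and rank 225 in replicate 2. At mrpr-1, the RNase MRP RNA gene (chrII:7200233-7200418), the signal was 203, with 92.3 and 110.4 in the replicates. That summit lay 21 bp past the start and 295 bp from the start of pcrg-1, the worm counterpart of the human Parkin co-regulated gene.

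The SRP RNA genes had pooled signals from 91.5 to 224. The strongest of their regions, at srpr-2.2 inside the kinesin gene klp-6 (chrIII:5031410-5031708), had a signal of 224, with 102 in replicate 1 and 119 in replicate 2. The other 4 genes had pooled signals of 133 at srpr-1.1, 132 at srpr-2.1, 104 at srpr-1.2 and 91.5 at srpr-3. In the replicates these were 61.0 and 76.7 at srpr-1.1, 49.7 and 80.1 at srpr-2.1, 55.6 and 50.3 at srpr-1.2, and 33.3 and 60.2 at srpr-3. The summit was 1 bp before the start at srpr-2.2 and 171 to 327 bp past it at the strongest regions of the other 4, which at srpr-1.1 put it beyond the end of the gene. A second reproducible region at srpr-1.2, with a signal of 102 and its summit 16 bp past the start, had no summit within 100 bp in the replicate 2 list. The host of srpr-1.2 is ckb-2, a choline kinase gene, on the same strand. No source used here says how reads that fit several copies were counted. The values of srpr-1.1, srpr-1.2, srpr-2.1 and srpr-2.2 are therefore uncertain, as is counting them as separate genes with a region. Identity was 98.3% for srpr-1.1 with srpr-1.2, 99.0% for srpr-2.1 with srpr-2.2, and 94.0% to 94.3% between these pairs. For srpr-3 with the others it was 81.7% to 82.7%. Without the regions at these 7 genes, a setting added after the data were seen, 90 of 2644 regions were reproducible, or 3.40%.

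The other 7 ncRNA genes with a symbol mostly had weak regions. The reproducible one was tts-2, with a signal of 114, 58.3 in replicate 1 and 61.3 in replicate 2, and a summit at -295 bp from its start. The related gene name tts-1, for a long RNA found on ribosomes in long-lived worms, had 42.7, with no match in replicate 1 and 27.9 in replicate 2. The Y RNA gene yrn-1 had 32.6 and the gene rncs-1, whose double-stranded RNA inhibits Dicer, had 34.6. For lfor-1, lfor-2 and linc-171 the pooled signals were 32.9, 57.6 and 37.6. None of these 6 had a match in both replicate lists. The annotation gave 0 spliced leader (sls), lep or anr genes in this class.

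**Figure D2:**
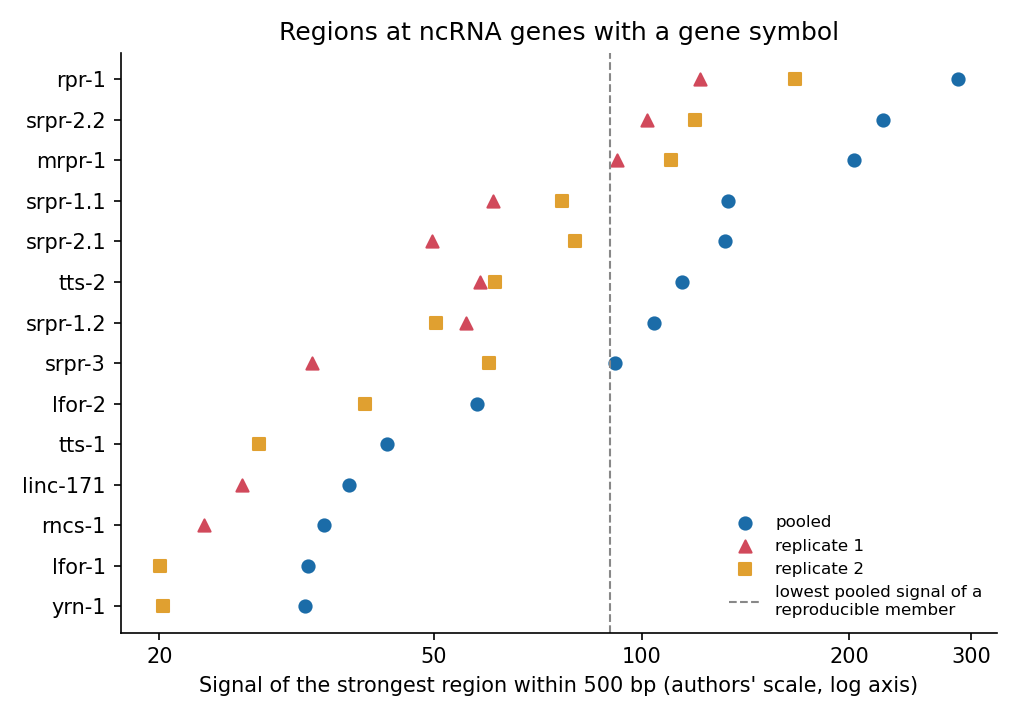
Signal of the strongest region within 500 bp of each of the 14 ncRNA genes with a gene symbol (x axis, the authors' scale, log axis), in the pooled list and in each replicate list; a missing point means no summit within 100 bp in that list. The 7 RNase P, RNase MRP and SRP RNA genes and tts-2 lie above the dashed line at 90.02, the lowest pooled signal of a reproducible region at an ncRNA start, and the other 6 lie below it.

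The 2 strongest regions of the class were at ncRNA genes with no symbol. The first was at C14F11.14 (147 nt, chrX:6207835-6207981), with a pooled signal of 453 at rank 23, and 217 and 239 in the replicates. Its summit was 31 bp past the start, and the protein-coding gene T13C5.6 started 179 bp away. The second was at F36H1.17 (89 nt, chrIV:11026131-11026219), with 384 pooled, 189 in replicate 1 and 201 in replicate 2, and its summit 18 bp past the start. No protein-coding start was near it, and the microRNA gene mir-51 started 89 bp away. Y37A1B.335 (149 nt) had 247, with 127 and 124 in the replicates, and overlapped the microRNA gene mir-52, which started 34 bp from the summit. T28D6.13 (76 nt) had 223, with 104 and 119, and lay on the other strand inside the alpha-tubulin gene tba-7, whose start was 316 bp away.

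The rest of the 15 strongest fell from 202 to 141. W01D2.9 and K10H10.11 had 202 and 199, with summits 64 bp and 35 bp before the ncRNA start. H34C03.18 had 179, with its summit 413 bp past the start and outside the gene. C30E1.9, the longest ncRNA of the class at 14770 nt, had 158, followed by F57B10.17 (154), F13D11.19 (149.7), ZK816.8 (145) and F09E5.18 (141). The region at F57B10.17 was within 500 bp of the starts of tre-1, a trehalase gene, and dad-1, a gene for an oligosaccharyltransferase subunit. That at F09E5.18 was near the starts of F09E5.11 and bmy-1. All 15 were matched in both replicates, at ranks 20 to 651 in replicate 1 and 25 to 372 in replicate 2. Among the 15, 8 regions were narrower than the usual 460 bp, down to 115 bp at mrpr-1, and 1 region outside the 15 was. None of the 15 was within 1000 bp of a tRNA, snoRNA or snRNA start, and the nearest such start was 1697 bp away, at C30E1.9.

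A protein-coding start lay within 500 bp of 578 regions, or 21.8% (20.2 to 23.4). Of these, 29 were reproducible, or 5.02% (3.52 to 7.11), against 70 of 2077 without one, or 3.37% (2.68 to 4.24). The intervals overlap, and the median signals were 40.2 and 38.2. Both shares lay above the 2.10% of the like-for-like background, which mixes regions with and without a coding start. The 5521 regions at a protein-coding start but no ncRNA, tRNA, snoRNA or snRNA start had 4.56% (4.04 to 5.15). That value is inside the interval of the 578. The 17244 regions at none of these starts had 1.06% (0.913 to 1.22). In 372 regions the ncRNA start was the nearer of the 2, and 28 of these were reproducible, or 7.53% (5.26 to 10.7). In the 206 with a coding start as near or nearer, 1 was reproducible, or 0.485% (0.0857 to 2.70). The nearest coding start was on the strand opposite to the ncRNA in 398 regions, 18 of them reproducible, or 4.52% (2.88 to 7.04). It was on the ncRNA strand in 180, 11 of them reproducible, or 6.11% (3.45 to 10.6), and these intervals overlap.

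The 29 regions with a coding start had 34 such genes in all, 5 of the regions having 2. By signal the first were T13C5.6 at C14F11.14, tba-7 at T28D6.13, pcrg-1 at mrpr-1, W01D2.3 at W01D2.9, and tre-1 with dad-1 at F57B10.17. Of all 19973 protein-coding genes, 550, or 2.75%, had their start within 500 bp of a region at an ncRNA start, and 34, or 0.170%, of a reproducible one. Ribosomal protein, histone, initiation factor and heat shock genes are set beside these shares without a test. Of 47 rpl- genes 7, or 14.9%, had a region at an ncRNA start and 1 a reproducible one, rpl-11.2 at AH9.7 with a signal of 105. For rps- genes the counts were 5 of 31 (16.1%) with a region and 0 reproducible, for his- genes 5 of 72 (6.94%) and 0, for eif- genes 1 of 25 (4%) and 0, and for hsp- genes 3 of 22 (13.6%) and 0. The start of ceh-39, a homeobox gene whose product helps count X chromosomes in sex determination, lay 215 bp from the region at T26C11.10, which had a signal of 90.2.

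The nearest ncRNA gene lay wholly inside a protein-coding gene for 1097 regions, or 41.3% (39.5 to 43.2). Of these, 30 were reproducible, or 2.73% (1.92 to 3.88), against 69 of 1558 outside any such gene, or 4.43% (3.51 to 5.57). The intervals overlap. Antisense to the host there were 748 regions with 24 reproducible (3.21%, 2.17 to 4.73), and sense to a host 349 with 6 (1.72%, 0.790 to 3.70). Whether the ncRNA lay in introns alone (24 of 879, 2.73%) or touched a host exon (6 of 218, 2.75%), the share was nearly equal. The 5 strongest reproducible regions with a host were those at rpr-1, srpr-2.2 and T28D6.13, then C13G3.8 (signal 134) in pptr-2, a gene for a regulatory subunit of protein phosphatase 2A, and T28B11.22 (129) in T28B11.1. The first 4 of these ncRNAs ran opposite to their host and T28B11.22 ran with it. Regions with neither a host nor a coding start were the largest group, 1105 or 41.6% of the class. They held 45 of the 99 reproducible ones, or 45.5%. Their reproducible share of 4.07% (3.06 to 5.41) was near the 3.73% of the whole class.

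The ncRNA genes at reproducible regions were mostly under 200 nt long, as in the rest of the class. The median length was 149 nt at the 99 (exact 95% interval 142 to 186), 143 nt at the other 2556 and 140 nt over all 7764 ncRNA genes. An ncRNA of 200 nt or longer was nearest to 34.3% of the 99 (25.7 to 44.1) and to 22.3% of the others (20.7 to 24.0). By length, the reproducible share was 3.43% under 100 nt, 2.77% from 100 to 149 nt, 4.04% from 150 to 199 nt, 5.26% from 200 to 299 nt and 4.72% from 300 to 999 nt. At 1000 nt or more it was 19.0%, from 4 of 21 regions, with an interval of 7.67 to 40.0. The 3 longest among the 99 were C30E1.9, W05H9.3 (1512 nt, signal 104) and AH9.7 (1353 nt), which overlaps the lincRNA gene linc-78. The 3 shortest were Y51H7C.28 (51 nt, signal 97.6), T01D3.9 (54 nt, 90.9) and T26C11.10 (57 nt).

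Summits of the reproducible regions lay inside the ncRNA gene more often than before it. The summit was inside the gene in 49 of 99, or 49.5% (39.9 to 59.2), against 28.4% (26.7 to 30.2) of the other regions, and these intervals do not overlap. It was upstream of the start in 34.3% (25.7 to 44.1) against 48.6% (46.7 to 50.6). The median position was 31 bp past the start for the 99 and 6 bp past it for the others. The first 50 bp of the gene, from the start to 49 bp past it, held 21.2% (14.3 to 30.3) of the reproducible summits and 11.4% (10.2 to 12.7) of the others. The reproducible share was 5.89% (4.23 to 8.16) for summits within 50 bp of a start and 1.08% (0.368 to 3.12) from 401 to 500 bp. At the limit itself, the region just inside was at F26E4.16 (500 bp, signal 80.8, not reproducible) and the one just outside at F26D11.20 (501 bp, 35.4, not reproducible). The summit of the former lay only 4 bp from the start of the protein-coding gene cox-5B, the host of F26E4.16. Within 20 bp on the inner side 0 of 64 regions were reproducible, and on the outer side 1 of 53.

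**Figure D3:**
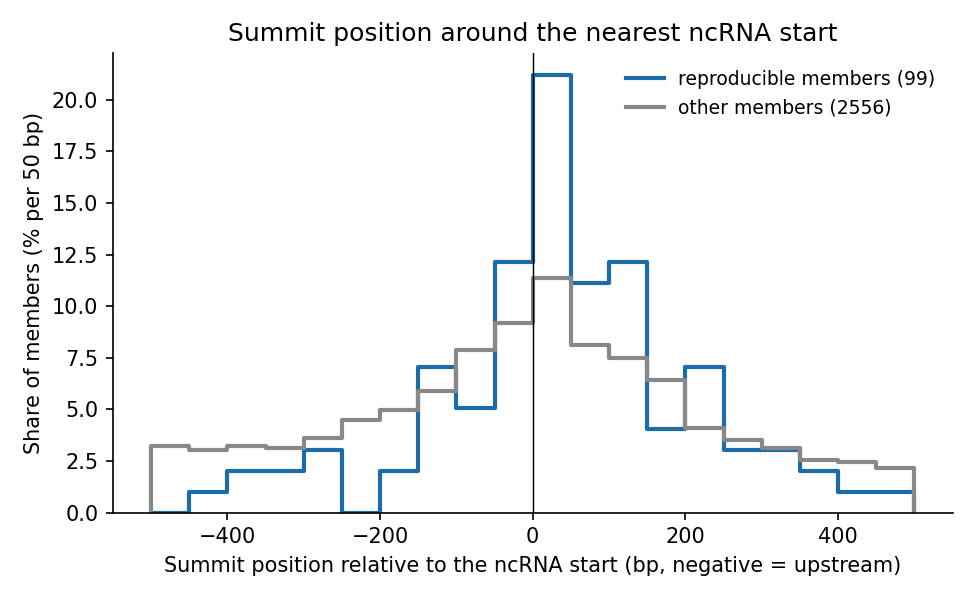
Summit position relative to the start of the nearest ncRNA gene, on the ncRNA strand (x axis, bp), as the share of regions per 50 bp (y axis, %), for the 99 reproducible regions and the 2556 others. The reproducible regions peak from 0 to 49 bp past the start, at 21.2%, where the others have 11.4%.

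For the comparison of replicates, each replicate list was cut to its 767 strongest regions, as many as the reproducible list holds, and a match needed summits within 100 bp. In replicate 1 there was a match for 66 of the 99, or 66.7% (56.9 to 75.2), and in replicate 2 for 70, or 70.7% (61.1 to 78.8). Both lists matched 43, or 43.4% (34.1 to 53.3), and 6 were in neither. For the other 647 nuclear reproducible regions the shares were 74.3% (70.8 to 77.6) and 80.2% (77.0 to 83.1). Both lists matched 58.7% (54.9 to 62.5) of these 647, an interval that does not overlap that of the 99. The 647 also had a higher median signal, 117 against 107, and its part in the recovery was not tested. In the full replicate lists 91 and 96 of the 99 were found. Across the 88 found in both, the Spearman correlation of the 2 replicates' signals was 0.268, a description over regions that share libraries. The reproducible list was made from these replicates, so this recovery is not independent evidence. Of the 2556 regions outside the reproducible list, 51.3% had a summit within 100 bp in the replicate 1 list and 65.8% in that of replicate 2.

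**Figure D4:**
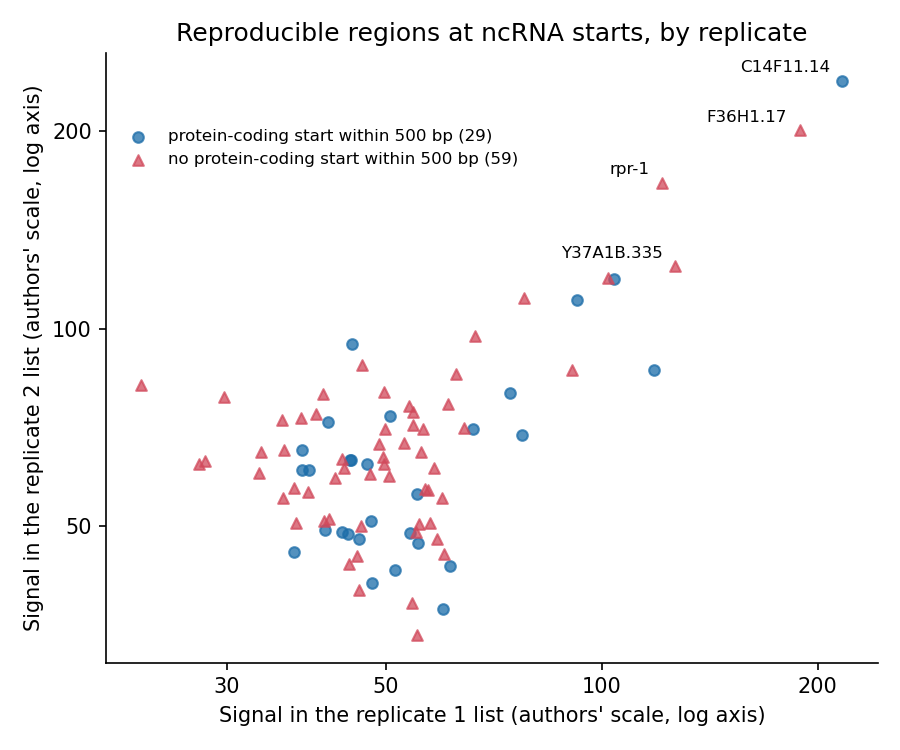
Signal in the replicate 1 list (x axis) and the replicate 2 list (y axis) of the 88 reproducible regions found in both, on the authors' scale with log axes, 29 with and 59 without a protein-coding start within 500 bp; the 2 lists were made separately, so levels are not compared between them. The 4 highest pooled regions, C14F11.14, F36H1.17, rpr-1 and Y37A1B.335, stand at the upper right in both replicates.

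A few of the regions lay beside microRNA genes. A miRNA start lay within 500 bp of 43 regions at ncRNA starts, or 1.62%, and of 0.501% of all nuclear regions. Of the 43, 6 were reproducible, or 14.0% (6.56 to 27.3), beside 3.73% (3.07 to 4.52) of the 2655 and 2.85% of all nuclear regions. The reproducible share over all nuclear regions at a miRNA start was not calculated. Besides mir-51 and mir-52, these were mir-58a at Y67D8A.6 (signal 119.6), mir-90 at K01F9.7 (117), the cluster of mir-54, mir-55, mir-55b and mir-56 at F09A5.11 (101) and mir-80 at K01F9.6 (90.1). The mir-51 family, which includes mir-52 and mir-54 to mir-56, is required for embryonic development, and mir-58a and mir-80 belong to the family related to fly bantam. These genes were picked out after their values were seen. A piRNA start lay near 3 of the 99, or 3.03%, beside 1.81% of the 2655 and 2.15% of all nuclear regions. For a pseudogene start it was 0 of the 99, beside 0.301% and 1.26%. Counts this small do not set the 99 apart from those shares.

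The forkhead core was about as rare at the 99 summits as at other reproducible regions away from tRNA, snoRNA and snRNA starts. Motifs were searched on both strands within 50 bp of the summit. The core TAAACA was in 2 of 99 windows, or 2.02% (0.556 to 7.07), in 5.73% of the 2655 and in 5.23% of all nuclear regions, and the longer GTAAACA, which holds it, was in 1.01%, 1.32% and 1.03%. GAGAGA was in 23.2% (16.0 to 32.5) of the 99, 15.8% of the 2655 and 10.8% of all. GGGCGG, a GC box, was in 13.1% (7.84 to 21.2), 5.76% and 4.09%. In the 434 other reproducible regions over 500 bp from tRNA, snoRNA and snRNA starts, TAAACA was in 2.30%, GAGAGA in 24.7% and GGGCGG in 9.22%, inside the intervals of the 99. TATAAA was in 2.02% (0.556 to 7.07) of the 99, 6.44% of the 2655 and 7.51% of all. TGATAA, which factors of the GATA family bind, was in 1.01% (0.179 to 5.50), 4.75% and 6.20%. In the 434, TATAAA was in 3.69% and TGATAA in 2.07%, also inside the intervals of the 99.

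The B box, an internal promoter element of tRNA genes, was searched as GGTTCGA and, after the data were seen, as GGTTCNA, which includes it. GGTTCGA was in 1 of the 99, or 1.01% (0.179 to 5.50), and in 25.8% of the 213 reproducible regions at tRNA, snoRNA or snRNA starts. GGTTCNA was in 5 of the 99, or 5.05% (2.18 to 11.3), in 39.4% of those 213 and in 3.56% of all nuclear regions. Among the 8 windows printed above, which reach 75 bp, it was found in 3. It began 64 bp past the start of C14F11.14, 55 bp past that of F36H1.17, where it reads GGTTCGA, and on the other strand at -30 bp from that of T28D6.13. In mrpr-1 the letters TATAAA began at -30 bp and TAAACA at -28 bp, sharing bases. A match is a description of letters, and binding to it was not measured.

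GC content was higher at reproducible regions, at ncRNA starts and elsewhere. In the same 101-base windows the mean was 53.5% (SD 6.91, n = 99) at the reproducible regions at ncRNA starts. It was 44.7% (SD 9.14, n = 2655) at all regions at ncRNA starts and 42.6% (SD 9.76, n = 26141) at all nuclear regions. The 213 reproducible regions at tRNA, snoRNA or snRNA starts had 51.4% (SD 6.16). The 434 other reproducible regions away from those starts had 49.1% (SD 7.90). Below 40% GC, 4 of 794 regions at ncRNA starts were reproducible, or 0.504% (0.196 to 1.29), against 0.536% of other regions over 500 bp from tRNA, snoRNA and snRNA starts. From 40% to 45% the shares were 0.973% (0.416 to 2.26) and 1.60% (1.27 to 2.01), lower at ncRNA starts with overlapping intervals. From 45% to 50% they were 2.85% (1.76 to 4.58) and 2.70%. From 50% to 55% they were 6.65% (4.70 to 9.34) and 4.05% (3.39 to 4.83). At 55% or more they were 13.1% (9.93 to 17.2) and 3.94% (3.19 to 4.84), and these 2 intervals do not overlap. The part of GC content in the signal and in the motif shares was not tested.

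**Figure D5:**
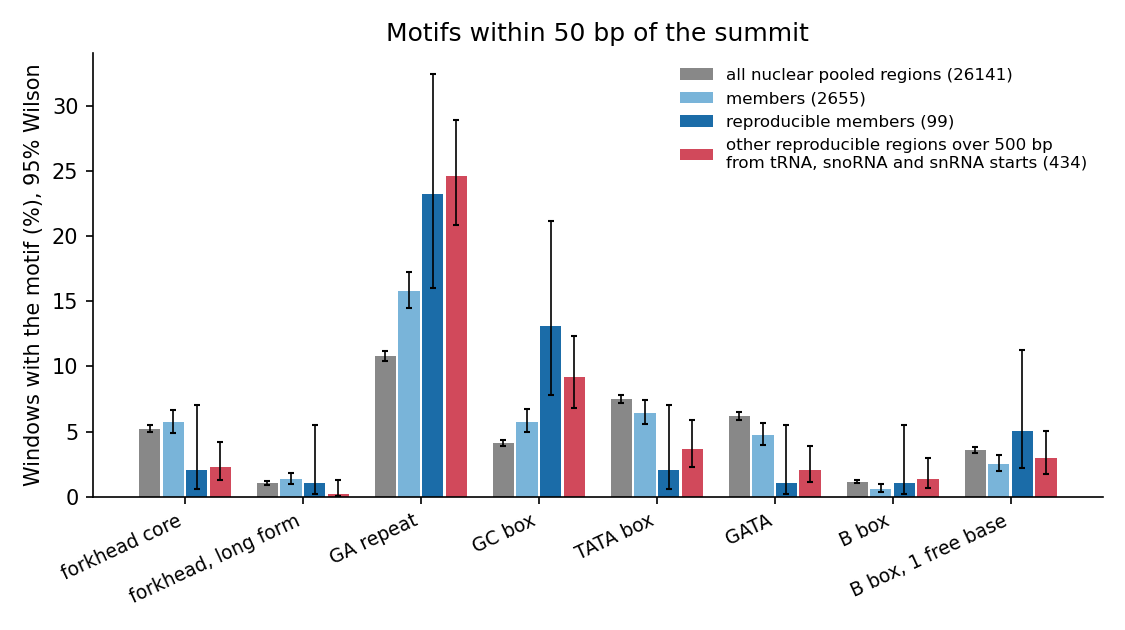
Share of windows of 50 bp on each side of the summit that hold each motif on either strand (y axis, %), for all nuclear regions, the 2655 regions at ncRNA starts, the 99 reproducible ones and 434 other reproducible regions, with 95% Wilson intervals as bars. The GA repeat is at 23.2% of the 99 and 24.7% of the 434, and the forkhead core at 2.02% of the 99.

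By chromosome, X held 782 of the 2655 regions, or 29.5% (27.8 to 31.2), and 35 of the 99 reproducible ones, or 35.4% (26.6 to 45.2). The same chromosome carries 32.5% of the ncRNA genes and 17.2% of nuclear pooled regions. It also held 180 of the 746 nuclear reproducible regions. Chromosome I held 12.7% of the regions with 10.4% of the ncRNA genes, and 9 of the 99. The share of regions at ncRNA starts that was reproducible ran from 2.66% on chromosome I to 4.73% on II, and was 4.48% (3.24 to 6.16) on X. The like-for-like background was 2.07% on I, 1.98% on II and 2.56% on X, where it was highest. Without X, a setting added after the data were seen, the share at ncRNA starts was 3.42%, beside a like-for-like background of 2.00%.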

How the data were processed

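ChIP-seq regions of FKH-6-GFP were taken from 4 deposited ce11 lists, for each of 2 biological replicates, for both pooled, and for the pooled regions past a threshold on the irreproducible discovery rate. The signal of a region is the authors' value and was used to rank and describe regions within a list. A −log10 q-value, also deposited by the authors, served for a stricter alternative. Per the deposited descriptions, the pooled list is permissive and holds peaks and background. Of its 26164 regions, 1098 have a −log10 q-value of at least 2. No source used here gives the peak caller, aligner, versions or threshold. Depth is unknown, and 0 columns belonged to other samples.

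Gene starts are 5' ends of genes in Ensembl release 115 (WBcel235). Chromosome lengths equal those of ce11. A pooled region was reproducible where its coordinates and summit were in the thresholded list. Replicate summits matched within 100 bp. Intervals are 95% Wilson intervals. Regions near each other are not independent. No test was run, since there is 1 group. Alternatives were other distances, a stricter list, each replicate alone, other exclusions, other matching rules and other motif windows. Python 3.11.15, NumPy 2.4.6, SciPy 1.17.1, Biopython 1.88 and Matplotlib 3.10.9 were used, and the rule was tested on simulated data.

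The ncRNA genes named are those at the 15 strongest regions, at the 5 strongest reproducible regions with and without a coding start and with a host, at the 3 longest and 3 shortest reproducible ones and at the 500 bp limit, and those with a symbol. The motifs were those listed, and ceh-39 and the miRNA genes were chosen after their values were seen. Members and lists were chosen with earlier results of these data known.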

Additional observations from a re-analysis of the deposited data

How the results depend on the processing

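Of 88 alternative values, 60 stayed within the interval of the reported value (for the number of regions, within 1.5 times) and 28 moved. Within 250 bp in place of 500 bp, a coding start was near 13.0%, the share reproducible without a coding start was 4.30%, 37.9% had a host and 45.7% of summits were upstream. Within 1000 bp, 2.91% were reproducible, 34.3% had a coding start, 2.12% of those without one were reproducible, 44.1% had a host and 52.2% were upstream. With a −log10 q-value of at least 2 there were 163 regions, of which 58.9% were reproducible, beside 62.9% of all nuclear regions over 500 bp from tRNA, snoRNA and snRNA starts at that limit. There 28.2% had a coding start, the shares with and without one were 63.0% and 57.3%, 34.4% had a host and 38.0% were upstream. With regions at tRNA, snoRNA and snRNA starts kept, 7.54% were reproducible, 8.19% with and 7.36% without a coding start, the median length was 124.5 nt and 46.0% were upstream. With the ncRNA start nearer than any coding start, 15.2% had a coding start and 7.53% of these were reproducible. In the full replicate lists, 91.9% and 97.0% of the 99 were found. Windows of 100 bp on each side held GAGAGA in 47.5% and GGGCGG in 26.3% of the 99, and windows of 25 bp held GGTTCGA in 0%, which allows up to 3.03%.

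Without replicate 1 or 2, using the other's list, there were 1993 to 2641 regions, 3.60% to 4.52% reproducible, beside 2.04% and 2.68% of the like-for-like background. The share was 5.04% to 6.30% with a coding start and 3.19% to 3.98% without, and the median length was 149 to 157 nt. No paired analysis was possible because there is 1 group. The lists hold no counts, so a weak region cannot be set against its depth.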
